A study of Mus musculus with 16 samples.

Results

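The genes described here are 47 members of the TGF-beta, BMP and activin signalling pathway in the mouse thyroid gland. They were chosen by symbol as ligands, latent binding proteins, antagonists, receptors, SMAD proteins and ID targets, and all 47 were found among the 25611 entries of the deposited count table and passed the filter on low counts. Thyroid RNA was sequenced in female mice of the strain C57BL/6, 1 month old and weaned at 3 weeks, in 4 groups of 4 mice. WT(ND) and WT(LID) mice were wild type (WT), without a statement of whether they carried a Cre or floxed allele, and were fed the NIH-31 normal diet (ND) or a low iodine diet (LID, TD.95125) for less than a week. The mice of the groups *Glis3*-Pax8Cre(ND) and *Glis3*-Pax8Cre(LID) were fed the same diets. By their label they carried the Glis3<tm2Amj> allele together with the Pax8<tm1.1(cre)Mbu> allele, on a B6;129 background, and so lacked the exon of *Glis3* that encodes part of its zinc fingers in cells that express *Pax8*, which in this gland are the follicular cells. A LID lowers thyroid hormone and raises TSH, so the diet comparisons ask how the pathway responds to that state. The genotype comparisons ask how levels on each diet differ without functional GLIS3, and their interaction with diet whether the response differs. The study reported lower serum T4 and slightly higher TSH in *Glis3*-Pax8Cre(ND) than WT(ND) mice. On LID it reported a larger rise of TSH in *Glis3*-Pax8Cre than WT mice. Loss of GLIS3 and the different hormone state therefore cannot be told apart in the genotype comparisons. Mice are named by group and replicate number, as in WT(ND) 1.

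Ligands of this family are secreted dimers that bind pairs of type I and type II serine/threonine kinase receptors. TGF-betas and activins signal mainly through SMAD2 and SMAD3, and BMPs through SMAD1, SMAD5 and SMAD9, each with the shared partner SMAD4. Outside the cell, latent TGF-beta binding proteins hold TGF-beta in the matrix and antagonists such as follistatin, noggin and gremlin trap ligands, and inside it the inhibitory SMADs feed back on the pathway. The ID genes are widely used readouts of BMP signalling, and TGF-beta is known to restrain the growth and differentiated function of thyroid follicular cells in culture.

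Levels are given as CPM, the counts of a gene scaled to the size of its library after TMM normalization in edgeR, so that CPM compares mice for the same gene and not different genes. Groups were compared by the quasi-likelihood test of edgeR in 1 fit of the 16 mice over 16630 genes, and a gene was called at a Benjamini-Hochberg adjusted p under 0.05. The libraries held from 13892352 to 461077969 counted read pairs. Summed counts of *Glis3* did not fall in *Glis3*-Pax8Cre mice (85.8 to 105 CPM on ND against 45.2 to 85.8 CPM in WT(ND)), and counts over the whole gene do not separate the deleted exon. *Slc5a5*, the iodide transporter gene, separated the genotypes on both diets, with 8.43 to 20.2 CPM in the 8 *Glis3*-Pax8Cre mice and 81.8 to 2180 CPM in the 8 WT mice. WT(ND) 3 stood apart from the other WT(ND) mice, with 996 CPM of *Pax8* against 374 to 397 CPM in them and 643 to 989 CPM in *Glis3*-Pax8Cre(ND). Its *Slc5a5* level was the lowest of the WT mice, at 81.8 CPM against 132 to 187 CPM in the other WT(ND) mice. Values without WT(ND) 3 are given beside each member result whose call changed without it.

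Compared per kilobase of merged GENCODE exons (CPM per kb, the mean over the 4 mice of WT(ND)), the members spanned a wide range of levels. The ID genes *Id3* (103 ± 36.6 CPM per kb, SD, n = 4), *Id1* (60.9 ± 19.8) and *Id4* (52.2 ± 3.58) were at the top, and their spread between mice does not separate *Id1* from *Id4*. *Bmp5* was the most abundant of the 12 ligand genes (44.8 ± 8.84 CPM per kb), followed by *Inha* (8.86 ± 0.300), *Tgfb3* (6.15 ± 0.995) and *Tgfb1* (5.64 ± 0.610), and the last pair did not differ beyond their spread. Among the receptors the type I BMP receptor gene *Bmpr1a* (25.7 ± 1.84 CPM per kb) led, and *Smad4* (21.4 ± 0.599) led the SMAD genes. *Nog* (0.158 ± 0.0387 CPM per kb), *Inhba* (0.243 ± 0.0238) and *Fstl3* (0.336 ± 0.0973) were lowest. The exon length of *Fstl3* includes the 47.3% of its bases that it shares with *Prss57*, so its place among the low members is uncertain. In WT(LID) *Fstl1* had rank 3 among the 47 against rank 10 in WT(ND), at 83.6 CPM per kb against 18.7.

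Under LID, members of the pathway moved in both directions in WT mice. In WT(LID) against WT(ND), 18 of the 47 members were higher and 9 lower (quasi-likelihood test of edgeR, Benjamini-Hochberg adjusted p under 0.05), 38.3% and 19.1% of the members against 20.9% and 20.8% of all genes tested, so that the share of lower members was near the background. The median log2 fold change of the members was 0.17 and that of all genes -0.03. Scaling by library size alone, which shifted the median of all genes by -0.16, gave 15 higher and 14 lower. In *Glis3*-Pax8Cre(LID) against *Glis3*-Pax8Cre(ND), 7 members were higher and 5 lower, 14.9% and 10.6% of the members against 13.1% and 12.3% of all genes, with a median of -0.02 against -0.03, shares near the background. Library size alone, which shifted the median of all genes by -0.13 there, gave 6 higher and 9 lower. In a fit of those 8 mice with the replicate number as a block, 5 were higher and 3 lower. The diet responses of the genotypes were compared by the interaction, the log2 fold change with diet in *Glis3*-Pax8Cre mice minus that in WT mice. It was negative and called for 9 members and positive and called for 2, or 19.1% and 4.26% of the members against 7.41% and 4.43% of all genes. The positive count was 6 without *Glis3*-Pax8Cre(LID) 2, and 1 without WT(ND) 1, any *Glis3*-Pax8Cre(ND) mouse, WT(LID) 2, 3 or 4, or *Glis3*-Pax8Cre(LID) 1, 3 or 4. For the fits with library size alone, with the block or without a mouse, shares of all genes called are not given here. Their counts are therefore not to be set against the shares above, which belong to the main fit.

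Between genotypes on ND, 9 members were higher in *Glis3*-Pax8Cre(ND) than WT(ND) mice and 2 were lower, 19.1% and 4.26% of the members against 10.3% and 9.25% of all genes. The higher count was 14 under library size scaling alone, which shifted the median of all genes by 0.12, and 5 in a fit of those 8 mice. The higher count was also 14 without WT(ND) 3 and as low as 4 without WT(ND) 1 or WT(ND) 2, and it was 5 without WT(ND) 4 or *Glis3*-Pax8Cre(ND) 3. Shares of all genes called in these other fits are not given here, so these counts are not set against a background. On LID, 14 members were higher and 14 lower in *Glis3*-Pax8Cre(LID) than WT(LID) mice, 29.8% of the members in each direction against 14.9% and 15.4% of all genes. The median of the members there was 0.04 (0.01 for all genes), while the median size of the difference regardless of sign was 0.62 on the log2 scale against 0.26 for all genes. Comparisons that share a group of mice are not independent of each other.

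A stricter call, at an adjusted p under 0.01 and over 2-fold, left 7 members higher and 2 lower in WT(LID) against WT(ND) (7.68% and 4.8% of all genes), and 2 higher and 1 lower in *Glis3*-Pax8Cre(LID) against *Glis3*-Pax8Cre(ND) (2.93% and 2.07%). It left 2 higher and 2 lower between genotypes on ND (2.29% and 1.86%) and 3 higher and 9 lower on LID (2.92% and 5.02%). For the interaction, 6 members were negative (2.89% of all genes) and 0 positive (0.74%) by edgeR's strict call, where 8 positive members had an unadjusted p under 0.05 and DESeq2 called 4 at an adjusted p under 0.05. Levels of the 4 mice of each group did not overlap for 16 members higher and 11 lower in WT(LID) against WT(ND) (23.7% and 23.3% of all genes), and for 7 higher and 3 lower in *Glis3*-Pax8Cre(LID) against *Glis3*-Pax8Cre(ND) (11.8% and 10.2%). Between genotypes they did not overlap for 7 higher and 3 lower members on ND (9.58% and 9.96%) and for 13 higher and 14 lower on LID (17.7% and 17.9%).

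**Figure D1:**
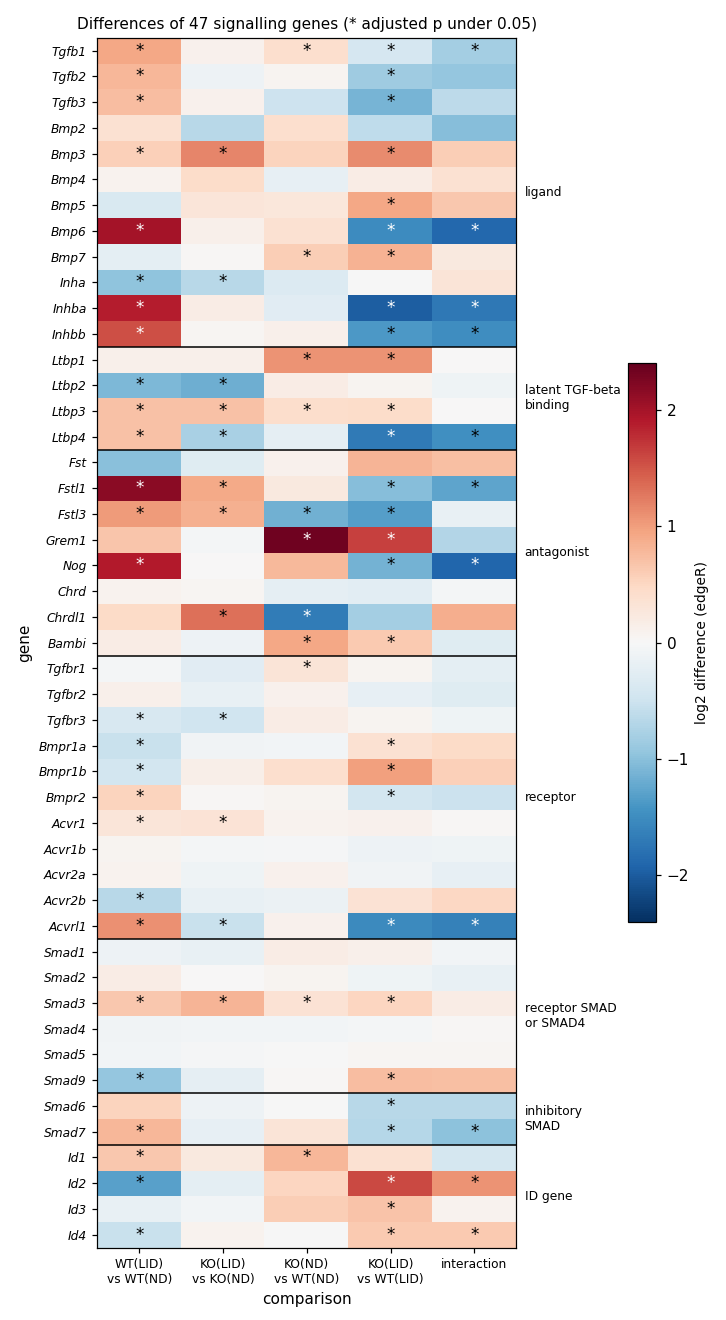
Log2 differences of the 47 members (rows, ordered by role) in the 4 comparisons and the interaction (columns, KO for *Glis3*-Pax8Cre), in red where the first-named group was higher and in blue where it was lower, with a star at an adjusted p under 0.05. *Bmp6*, *Inhba*, *Fstl1* and *Nog* are dark red in WT(LID) against WT(ND) and blue in the interaction, while *Smad4* and *Smad5* are pale in every column.

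Markers of vascular and stromal cells moved with the diet in WT mice. Summed levels of endothelial markers were 751 to 986 CPM on ND and 2030 to 2270 on LID in WT mice, and 963 to 1430 on ND and 915 to 1260 on LID in *Glis3*-Pax8Cre mice. Of the 8 endothelial markers, 8 were higher in WT(LID) than in WT(ND), 6 were lower in *Glis3*-Pax8Cre(LID) than WT(LID) mice and 8 had a negative interaction. Over all genes tested these shares were 20.9%, 15.4% and 7.41%. *Pecam1*, a defining marker of these cells, had group means of 136 and 406 CPM in WT mice and 174 and 137 CPM in *Glis3*-Pax8Cre mice, each on ND and then on LID. Pericyte and smooth muscle markers summed to 393 to 511 and 823 to 1250 CPM in WT mice and to 528 to 718 and 483 to 675 CPM in *Glis3*-Pax8Cre mice, and 5 of 7 were higher in WT(LID). Fibroblast markers summed to 359 to 488 and 678 to 815 CPM in WT mice and to 180 to 373 and 270 to 475 CPM in *Glis3*-Pax8Cre mice, but gene by gene they were mixed, with 2 of 7 higher and 1 lower in WT(LID) and a median log2 fold change of -0.08. Macrophage markers were higher in *Glis3*-Pax8Cre(ND), at 291 to 347 CPM against 171 to 255 in WT(ND), for 7 of 7 genes. The part of these shifts in the rise of *Acvrl1*, *Bmp6*, *Inhba*, *Fstl1*, *Ltbp4* and other members, and in the genotype differences on ND, was not tested, and in whole glands more cells of a type and more RNA per cell cannot be told apart. Follicular markers, led by *Tg*, were present in all mice, and their sum was lower in *Glis3*-Pax8Cre than WT mice on both diets without overlap (126000 to 187000 against 204000 to 308000 CPM on ND and 98800 to 166000 against 221000 to 333000 on LID). Of the 9 follicular markers, 3 were lower and 2 higher on ND, and 3 were lower and 3 higher on LID. Parathyroid markers fell with LID in both genotypes for 4 of 4 genes, with sums of 6890 to 12600 and 1670 to 3730 CPM in WT mice and 5620 to 8780 and 366 to 3500 CPM in *Glis3*-Pax8Cre mice. In WT mice the sum of C cell markers (2540 to 4060 CPM on ND and 1350 to 1840 on LID, 3 of 5 genes lower and 1 higher) and that of adipocyte markers (760 to 1330 and 415 to 690 CPM, 5 of 6 genes lower) were also lower on LID. Their part in the falls of *Ltbp2*, *Inha*, *Tgfbr3* and other members with LID, and that of the follicular sum in the genotype differences, was not tested. Thymocyte markers were uneven between mice, at 2140 CPM in *Glis3*-Pax8Cre(ND) 4 against 12.1 to 15.2 CPM in the rest of that group. Leaving out that mouse together with WT(ND) 3 gave 16 members higher in *Glis3*-Pax8Cre(ND) than WT(ND) mice, and the share of all genes called in that fit is not given here.

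**Figure D2:**
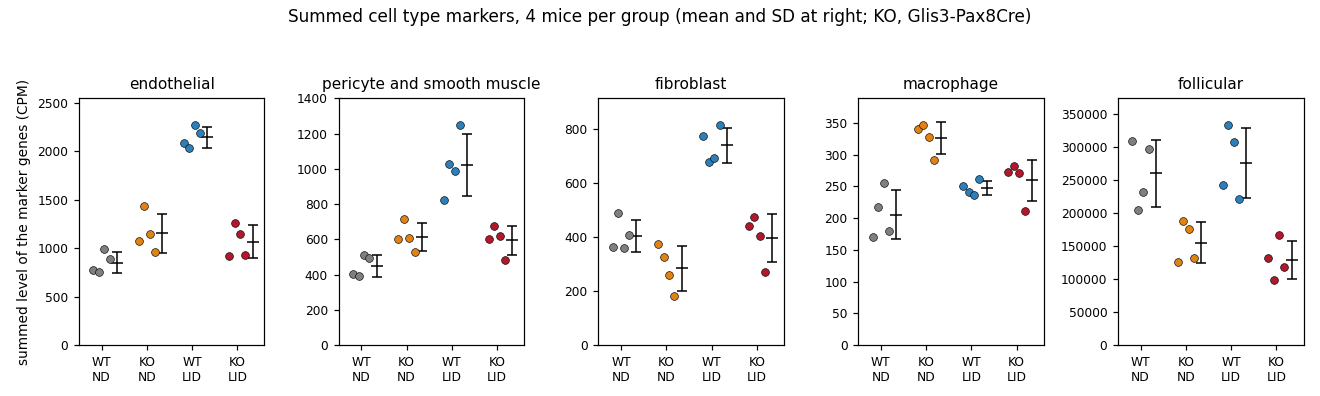
Summed level of cell type marker genes (CPM, vertical axis from 0), with 1 point per mouse, 4 mice per group (KO for *Glis3*-Pax8Cre), and the mean and SD to the right of each group. Endothelial, pericyte and fibroblast sums are highest in the 4 WT(LID) mice, at 2030 to 2270, 823 to 1250 and 678 to 815 CPM, and macrophage sums are highest in *Glis3*-Pax8Cre(ND), at 291 to 347 CPM.

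Promoters of 5 members with contrasting patterns are given as the 250 bases upstream of a RefSeq transcription start (GRCm38.p6, the mm10 assembly), read 5′ to 3′ on the strand of the gene. *Ltbp1* and *Ltbp4* are shown because they moved apart between genotypes, *Grem1* for its large genotype difference, and *Id2* and *Id4* for their positive interactions. Capitals mark a cAMP response element (TGACGTCA) in *Ltbp1*, a GC-rich letter group of BMP-responsive promoters (GGCGCC) in the other 4, an NKX2-1 core (CAAGTG, here on the reverse strand) in *Ltbp4* and the core of the cAMP response element (TGACG, here on the reverse strand) in *Id4*.
Ltbp1 (chr17:75005279-75005528, plus strand): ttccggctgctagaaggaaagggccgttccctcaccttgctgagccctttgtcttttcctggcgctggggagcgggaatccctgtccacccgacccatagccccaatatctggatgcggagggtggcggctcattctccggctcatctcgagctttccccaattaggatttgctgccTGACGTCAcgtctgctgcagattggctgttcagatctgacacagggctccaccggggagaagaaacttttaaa
Ltbp4 (chr7:27333649-27333898, minus strand): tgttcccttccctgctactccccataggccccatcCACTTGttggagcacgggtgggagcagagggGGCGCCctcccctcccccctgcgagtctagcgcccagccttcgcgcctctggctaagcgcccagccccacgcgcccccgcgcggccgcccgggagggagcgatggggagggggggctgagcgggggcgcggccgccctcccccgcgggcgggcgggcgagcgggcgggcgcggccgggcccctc
Grem1 (chr2:113758649-113758898, minus strand): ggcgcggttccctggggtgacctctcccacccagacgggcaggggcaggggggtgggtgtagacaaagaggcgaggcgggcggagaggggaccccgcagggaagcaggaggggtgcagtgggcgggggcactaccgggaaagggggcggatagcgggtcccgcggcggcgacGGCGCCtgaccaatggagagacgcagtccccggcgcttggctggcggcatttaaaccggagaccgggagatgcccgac
Id2 (chr12:25096093-25096342, minus strand): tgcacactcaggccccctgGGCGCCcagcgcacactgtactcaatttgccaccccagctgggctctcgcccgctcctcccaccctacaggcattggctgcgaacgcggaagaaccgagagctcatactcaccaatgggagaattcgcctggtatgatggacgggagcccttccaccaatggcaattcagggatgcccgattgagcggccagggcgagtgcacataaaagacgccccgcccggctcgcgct
Id4 (chr13:48260866-48261115, plus strand): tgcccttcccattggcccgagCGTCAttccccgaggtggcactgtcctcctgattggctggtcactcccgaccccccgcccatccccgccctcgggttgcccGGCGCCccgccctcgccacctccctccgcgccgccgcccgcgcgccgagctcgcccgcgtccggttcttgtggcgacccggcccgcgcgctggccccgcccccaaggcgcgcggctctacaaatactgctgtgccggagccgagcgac

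Motifs were searched on both strands of the whole 300-base entries, which run from 250 bases before to 50 after a start. The search covered 41 promoters of 33 members and 32544 promoters of all genes. Promoters on chromosome 18, which holds *Bambi*, *Smad2*, *Smad4* and *Smad7*, were left out of both sets, and identical sequences were counted once. GGCGCC was in 13 of the 41 (31.7%) and in 11.9% of all promoters. Starts of a gene that lie close together, such as those of *Ltbp4* and of *Smad5*, were counted separately. GGCGCC holds only G and C, and the member promoters were not matched to the others by GC content. TGACGTCA was in 1 member promoter, that of *Ltbp1*, and in 1.80% of all, and its core TGACG, which it contains, was in 8 (19.5%) and in 20.9%. CAGACA, a SMAD-binding element with a flanking base, was in 8 (19.5%) and in 20.9%, and the SMAD palindrome GTCTAGAC in 1 (*Smad6*) and in 0.215%. CAAGTG was in 4 (9.76%), all of them at starts of *Ltbp4* or *Smad5*, and in 13.5%. The GLIS letters TGGGGGGT were in 0 of 41 and in 1.53%. *Ltbp1* has a further start in RefSeq, whose upstream sequence (chr17:75178531-75178780) holds CAGACA at 2 places and no TGACG, and the outermost start of *Ltbp4* (upstream sequence chr7:27337613-27337862) has none of the searched motifs there. For these genes the promoter with motifs was the one printed. These are matches of letters and were not tested as sites.

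Among the ligand genes, *Tgfb1*, *Bmp6*, *Inhba* and *Inhbb* rose with LID in WT mice and had negative interactions. Of the 12 ligand genes, 7 were higher and 1 lower in WT(LID) than in WT(ND) (20.9% and 20.8% of all genes), and 6 were lower and 3 higher in *Glis3*-Pax8Cre(LID) than WT(LID) mice (15.4% and 14.9% of all genes). *Tgfb1* (Entrez 21803, chr7:25687002-25705077 of mm10, plus strand), which encodes the most studied TGF-beta, was at 27.7, 25.6, 32.8 and 27.6 CPM in the WT(ND) mice and 30.9, 42.4, 36.5 and 40.8 CPM in the *Glis3*-Pax8Cre(ND) mice. Its values on LID were 51.6, 51.6, 60.4 and 51.6 CPM in the WT(LID) mice and 34.1, 50.01, 42.1 and 36.3 CPM in the *Glis3*-Pax8Cre(LID) mice. All WT(LID) mice lay above all WT(ND) mice, and WT(LID) 3 lay above the other 3, which were nearly equal. *Tgfb1* rose 1.89-fold in WT mice (log2 fold change 0.92 ± 0.13 SE, adjusted p = 3.72e-05, quasi-likelihood test of edgeR, Benjamini-Hochberg adjusted), against a log2 fold change of 0.11 (adjusted p = 0.557) in *Glis3*-Pax8Cre mice (same test). The interaction was -0.81 (adjusted p = 0.00734). On LID it was lower in *Glis3*-Pax8Cre mice (-0.40, adjusted p = 0.0225, same test), without overlap between the groups. Scaling by library size alone ended this call (-0.26, adjusted p = 0.124), as did leaving out WT(LID) 3 (0.0675), *Glis3*-Pax8Cre(LID) 1 (0.0725) or *Glis3*-Pax8Cre(LID) 4 (0.0696). The higher level in *Glis3*-Pax8Cre(ND) than in WT(ND) (0.41, adjusted p = 0.0325) was likewise lost without WT(ND) 1, 2 or 4 or *Glis3*-Pax8Cre(ND) 2, 3 or 4, with adjusted p from 0.0527 to 0.0945. A fit of the ND mice alone ended that call too (0.43, adjusted p = 0.057).

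*Tgfb3* (Entrez 21809, chr12:86056743-86079041 of mm10, minus strand), the gene of a further TGF-beta isoform, was at 19.8, 18.5, 25.8 and 19.2 CPM in the WT(ND) mice and 15.1, 18.1, 17.2 and 8.87 CPM in the *Glis3*-Pax8Cre(ND) mice. With LID the levels were 25.7, 39.7, 37.8 and 35.6 CPM in the WT(LID) mice and 14.9, 18.1, 17.8 and 12.99 CPM in the *Glis3*-Pax8Cre(LID) mice. WT(LID) 1 was level with WT(ND) 3 and the other WT(LID) mice were above all others, while every *Glis3*-Pax8Cre(LID) mouse was below every WT(LID) mouse. It rose in WT(LID) (log2 fold change 0.74 ± 0.20 SE, adjusted p = 0.00775, quasi-likelihood test of edgeR, Benjamini-Hochberg adjusted) and was 2.17-fold lower in *Glis3*-Pax8Cre(LID) (log2 fold change -1.12 ± 0.20 SE, adjusted p = 0.000586, same test). Its interaction was not called with all 16 mice (-0.63, adjusted p = 0.166) but was without *Glis3*-Pax8Cre(ND) 4 (-0.83, adjusted p = 0.0193). *Tgfb2* was at 4.73 ± 0.549 CPM (SD, n = 4) on ND and 8.25 ± 1.504 on LID in WT mice, and at 4.95 ± 1.36 on ND and 4.57 ± 1.36 on LID in *Glis3*-Pax8Cre mice. It rose in WT(LID) (0.80, adjusted p = 0.00912, same test) and was lower in *Glis3*-Pax8Cre(LID) than WT(LID) mice (-0.85, adjusted p = 0.00887). The interaction of *Tgfb2* was not called with all 16 mice (-0.92, adjusted p = 0.0721), but was by DESeq2 (-0.93, adjusted p = 0.0291) and without *Glis3*-Pax8Cre(ND) 3 (0.0263), WT(LID) 1 (0.0479) or *Glis3*-Pax8Cre(LID) 1 (0.021).

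The BMP genes divided. *Bmp6* (Entrez 12161, chr13:38345716-38500314 of mm10, plus strand), which endothelial cells are known to secrete and which drives hepcidin in the liver, was at 5.42, 4.55, 4.62 and 6.83 CPM in the WT(ND) mice and 6.96, 8.74, 7.57 and 4.37 CPM in the *Glis3*-Pax8Cre(ND) mice. Levels on LID were 19.2, 21.7, 19.9 and 25.3 CPM in the WT(LID) mice and 6.21, 7.86, 8.13 and 7.997 CPM in the *Glis3*-Pax8Cre(LID) mice. The 4 WT(LID) mice were far above the other 12, which overlapped across their groups. The rise in WT(LID) was 4.01-fold (log2 fold change 2.004 ± 0.19 SE, adjusted p = 1.28e-06, quasi-likelihood test of edgeR, Benjamini-Hochberg adjusted), and in *Glis3*-Pax8Cre mice the log2 fold change with diet was 0.13 (adjusted p = 0.655). The difference between genotypes on LID was -1.51 (adjusted p = 2.6e-05) and the interaction -1.88 (adjusted p = 0.000294) by the same test. *Bmp6* shares 5.74% of its exon bases with *Txndc5* on the opposite strand, counted without regard to strand, and *Txndc5* was at 275 CPM in WT(ND) and 257 CPM in WT(LID).

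*Bmp3* (Entrez 110075, chr5:98854415-98884053 of mm10, plus strand), which encodes an unusual BMP that opposes others in bone, was at 2.66, 3.51, 4.96 and 3.41 CPM in the WT(ND) mice and 6.399, 5.07, 5.55 and 4.21 CPM in the *Glis3*-Pax8Cre(ND) mice. The LID levels were 5.34, 5.84, 5.05 and 5.54 CPM in the WT(LID) mice and 11.7, 13.3, 8.92 and 13.96 CPM in the *Glis3*-Pax8Cre(LID) mice. The *Glis3*-Pax8Cre(LID) mice were above all 12 others. It was 2.20-fold higher there than in WT(LID) (log2 fold change 1.13 ± 0.18 SE, adjusted p = 0.000261, quasi-likelihood test of edgeR, Benjamini-Hochberg adjusted) and rose with LID in *Glis3*-Pax8Cre mice (1.18, adjusted p = 0.000389, same test). The smaller rise in WT(LID) (0.58, adjusted p = 0.0186) was not called under library size scaling alone (0.42, adjusted p = 0.106) or without WT(ND) 1 (0.0616) or WT(ND) 4 (0.0510). The interaction was not called (0.59, adjusted p = 0.158). On ND, the higher level of *Bmp3* in *Glis3*-Pax8Cre(ND) missed the threshold with all 16 mice (0.54, adjusted p = 0.0515) and passed it without WT(ND) 3 (0.74, adjusted p = 0.00716). It also passed by DESeq2 (0.0228), with RLE (0.0472) or library size scaling (0.0323), with a minimum of 10 counts in every mouse (0.0472), and without *Glis3*-Pax8Cre(ND) 4 (0.0263) or *Glis3*-Pax8Cre(LID) 3 (0.0399).

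*Bmp5* and *Bmp7*, which encode close relatives of the BMP6 type, were also higher in *Glis3*-Pax8Cre(LID) than WT(LID) mice. *Bmp5*, the most abundant ligand, was at 180.4 ± 35.6 CPM (SD, n = 4) on ND and 141 ± 10.8 on LID in WT mice, and at 218 ± 36.8 on ND and 267 ± 46.7 on LID in *Glis3*-Pax8Cre mice. The difference of *Bmp5* between genotypes on LID was 0.92 (adjusted p = 0.000383) by the Benjamini-Hochberg adjusted test of edgeR. *Bmp7* was at 8.62 ± 1.85 CPM (SD, n = 4) on ND and 7.38 ± 1.45 on LID in WT mice, and at 13.02 ± 0.793 on ND and 13.2 ± 1.77 on LID in *Glis3*-Pax8Cre mice. It was higher in *Glis3*-Pax8Cre mice on both LID (0.84, adjusted p = 0.00104, same test) and ND (0.59, adjusted p = 0.0184), the latter lost without WT(ND) 1 (0.0553) or WT(ND) 2 (0.0580). With all 16 mice and TMM scaling neither was called with diet in either genotype, although *Bmp5* was called lower in WT(LID) under library size alone (-0.52, adjusted p = 0.0117), in a fit of the WT mice alone (0.0428) and without WT(ND) 2 (0.0404) or *Glis3*-Pax8Cre(ND) 4 (0.0493). The interaction of *Bmp5* was not called with all 16 mice. It was called by DESeq2 (0.64, adjusted p = 0.0391) and without WT(ND) 2 (0.74, adjusted p = 0.0469) or *Glis3*-Pax8Cre(LID) 2 (0.75, adjusted p = 0.0378). *Bmp2* (group means 11.6 to 18.4 CPM) and *Bmp4* (4.45 to 6.03 CPM), the classical BMP ligands, did not pass edgeR's test with all 16 mice, with adjusted p from 0.0751 to 0.279 and from 0.109 to 0.770 in the 4 comparisons. *Bmp2* was called lower in *Glis3*-Pax8Cre(LID) than *Glis3*-Pax8Cre(ND) mice by DESeq2 (-0.66, adjusted p = 0.0449), under library size alone (0.0378), in a fit of those 8 mice (0.0333), and without WT(ND) 4 (0.00599) or *Glis3*-Pax8Cre(ND) 4 (0.0285). It was called lower in *Glis3*-Pax8Cre(LID) than WT(LID) mice in a fit of those 8 mice (-0.62, adjusted p = 0.00115) and without WT(ND) 4 (0.00664). Its interaction was called by DESeq2 (-1.04, adjusted p = 0.0345) and without WT(ND) 4 (0.0376) or *Glis3*-Pax8Cre(ND) 4 (0.0366).

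Activin subunit genes rose in WT(LID) and the inhibin alpha gene fell. *Inhba* (Entrez 16323, chr13:16011851-16031609 of mm10, plus strand), whose product forms activin A, was at 1.53, 1.55, 1.39 and 1.75 CPM in the WT(ND) mice and 1.38, 1.36, 1.24 and 1.18 CPM in the *Glis3*-Pax8Cre(ND) mice. Its values on LID were 8.52, 3.82, 3.74 and 6.87 CPM in the WT(LID) mice and 1.71, 1.01, 1.66 and 1.42 CPM in the *Glis3*-Pax8Cre(LID) mice. All 4 WT(LID) mice were above the other 12, with WT(LID) 1 and 4 above WT(LID) 2 and 3, and no *Glis3*-Pax8Cre mouse reached 2 CPM. Its rise in WT(LID) was 3.68-fold (log2 fold change 1.88 ± 0.25 SE, adjusted p = 3.04e-05, quasi-likelihood test of edgeR, Benjamini-Hochberg adjusted), against 0.17 (adjusted p = 0.644) in *Glis3*-Pax8Cre mice. The interaction was -1.71 (adjusted p = 0.00518). On LID the level was 3.95-fold lower in *Glis3*-Pax8Cre mice (-1.98, adjusted p = 3.04e-05, same test).

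*Inhbb* (Entrez 16324, chr1:119415463-119422248 of mm10, minus strand), the activin B subunit, was at 4.44, 6.16, 9.41 and 9.35 CPM in the WT(ND) mice and 6.53, 9.83, 8.72 and 6.78 CPM in the *Glis3*-Pax8Cre(ND) mice. With LID the levels were 16.8, 20.5, 31.7 and 16.3 CPM in the WT(LID) mice and 4.18, 9.84, 11.97 and 6.96 CPM in the *Glis3*-Pax8Cre(LID) mice. The WT(LID) mice were again the highest, with WT(LID) 3 well above the other 3. It rose 2.90-fold in WT(LID) (log2 fold change 1.54 ± 0.32 SE, adjusted p = 0.00148, quasi-likelihood test of edgeR, Benjamini-Hochberg adjusted) and was lower in *Glis3*-Pax8Cre(LID) than WT(LID) mice (-1.37, adjusted p = 0.00466, same test). Its interaction of -1.49 (adjusted p = 0.0435) was lost without WT(ND) 1 or 2, *Glis3*-Pax8Cre(ND) 2 or 3, WT(LID) 2 or 3, or *Glis3*-Pax8Cre(LID) 1, 2 or 4, with adjusted p from 0.0503 to 0.0892. That call was also lost without a filter on low counts (adjusted p = 0.0543). *Inha*, which encodes the alpha subunit that turns activins into inhibins, was at 13.1 ± 0.44 CPM (SD, n = 4) on ND and 6.66 ± 1.44 on LID in WT mice, and at 10.4 ± 2.28 on ND and 6.61 ± 1.41 on LID in *Glis3*-Pax8Cre mice. It fell with LID in WT mice (-0.97, adjusted p = 0.000512, same test) and in *Glis3*-Pax8Cre mice (-0.66, adjusted p = 0.0138), the latter not with the replicate block in those 8 mice (-0.68, adjusted p = 0.0582) or without *Glis3*-Pax8Cre(ND) 2 (-0.50, adjusted p = 0.0554).

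The 4 latent TGF-beta binding protein genes showed 4 different patterns. *Ltbp1* (Entrez 268977, chr17:75005529-75392512 of mm10, plus strand), which tethers latent TGF-beta to fibrillin and fibronectin, was at 72.2, 55.98, 107 and 70.1 CPM in the WT(ND) mice and 134, 199, 197 and 115 CPM in the *Glis3*-Pax8Cre(ND) mice. Levels on LID were 79.6, 91.7, 83.1 and 77.4 CPM in the WT(LID) mice and 152, 168, 222 and 158 CPM in the *Glis3*-Pax8Cre(LID) mice. Every *Glis3*-Pax8Cre mouse was above every WT mouse on the same diet, and WT(ND) 3 was the highest WT mouse. It was 2.11-fold higher on ND (log2 fold change 1.08 ± 0.20 SE, adjusted p = 0.00214) and 2.11-fold higher on LID (log2 fold change 1.08 ± 0.20 SE, adjusted p = 0.000906) by the Benjamini-Hochberg adjusted test of edgeR. With diet its log2 fold change was 0.12 (adjusted p = 0.673) in WT and 0.12 (adjusted p = 0.703) in *Glis3*-Pax8Cre mice.

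*Ltbp4* (Entrez 108075, chr7:27305141-27337612 of mm10, minus strand), which also takes part in elastic fibre assembly, was at 246, 205, 219 and 251 CPM in the WT(ND) mice and 186, 251, 191 and 162 CPM in the *Glis3*-Pax8Cre(ND) mice. The LID levels were 376, 373, 381 and 369.7 CPM in the WT(LID) mice and 89.4, 143, 142 and 87.3 CPM in the *Glis3*-Pax8Cre(LID) mice. The WT(LID) mice were the highest and close to each other, and the *Glis3*-Pax8Cre(LID) mice were below all 12 others. LID thus went with a rise in WT mice (log2 fold change 0.70 ± 0.16 SE, adjusted p = 0.00296, quasi-likelihood test of edgeR, Benjamini-Hochberg adjusted) and a fall in *Glis3*-Pax8Cre mice (log2 fold change -0.78 ± 0.17 SE, adjusted p = 0.00332, same test). The interaction was -1.48 (adjusted p = 0.000677), and on LID the level was 3.25-fold lower in *Glis3*-Pax8Cre mice (-1.70, adjusted p = 3.04e-06).

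*Ltbp2* (Entrez 16997, chr12:84783212-84876495 of mm10, minus strand), a matrix protein that does not bind latent TGF-beta, was at 23.98, 28.8, 33.2 and 35.7 CPM in the WT(ND) mice and 33.6, 40.9, 33.1 and 30.1 CPM in the *Glis3*-Pax8Cre(ND) mice. Its values on LID were 14.6, 13.98, 14.9 and 14.6 CPM in the WT(LID) mice and 16.7, 14.7, 14.4 and 14.9 CPM in the *Glis3*-Pax8Cre(LID) mice. All 8 LID mice lay in a narrow range below all 8 ND mice. It fell with LID by 1.07 on the log2 scale in WT mice (adjusted p = 4.47e-06, quasi-likelihood test of edgeR, Benjamini-Hochberg adjusted) and by 1.18 in *Glis3*-Pax8Cre mice (8.55e-06, same test). Its interaction was -0.11 (adjusted p = 0.707). *Ltbp2* shares 9.34% of its exon bases with *D030025P21Rik* on the other strand, which was at 1.05 CPM in WT(ND) and 0.183 CPM in WT(LID). *Ltbp3*, which pairs with latent TGF-beta in bone and vessels, was at 289.5 ± 26.1 CPM (SD, n = 4) on ND and 469 ± 20.3 on LID in WT mice, and at 390.2 ± 86.7 on ND and 636 ± 74.5 on LID in *Glis3*-Pax8Cre mice. It rose with LID in WT (0.70, adjusted p = 0.000899, same test) and *Glis3*-Pax8Cre mice (0.70, adjusted p = 0.00195). It was also higher in *Glis3*-Pax8Cre mice on ND (0.43, adjusted p = 0.0393) and LID (0.44, adjusted p = 0.0244). The ND call was lost without any of WT(ND) 1, 2 and 4, *Glis3*-Pax8Cre(ND) 2 and 3 and WT(LID) 4 (adjusted p 0.0513 to 0.115). A fit of the ND mice alone (0.106) and one without a filter on low counts (0.05) ended it too. The LID call was lost without WT(LID) 1 or 4 or *Glis3*-Pax8Cre(LID) 2 or 3 (0.0582 to 0.0689).

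**Figure D3:**
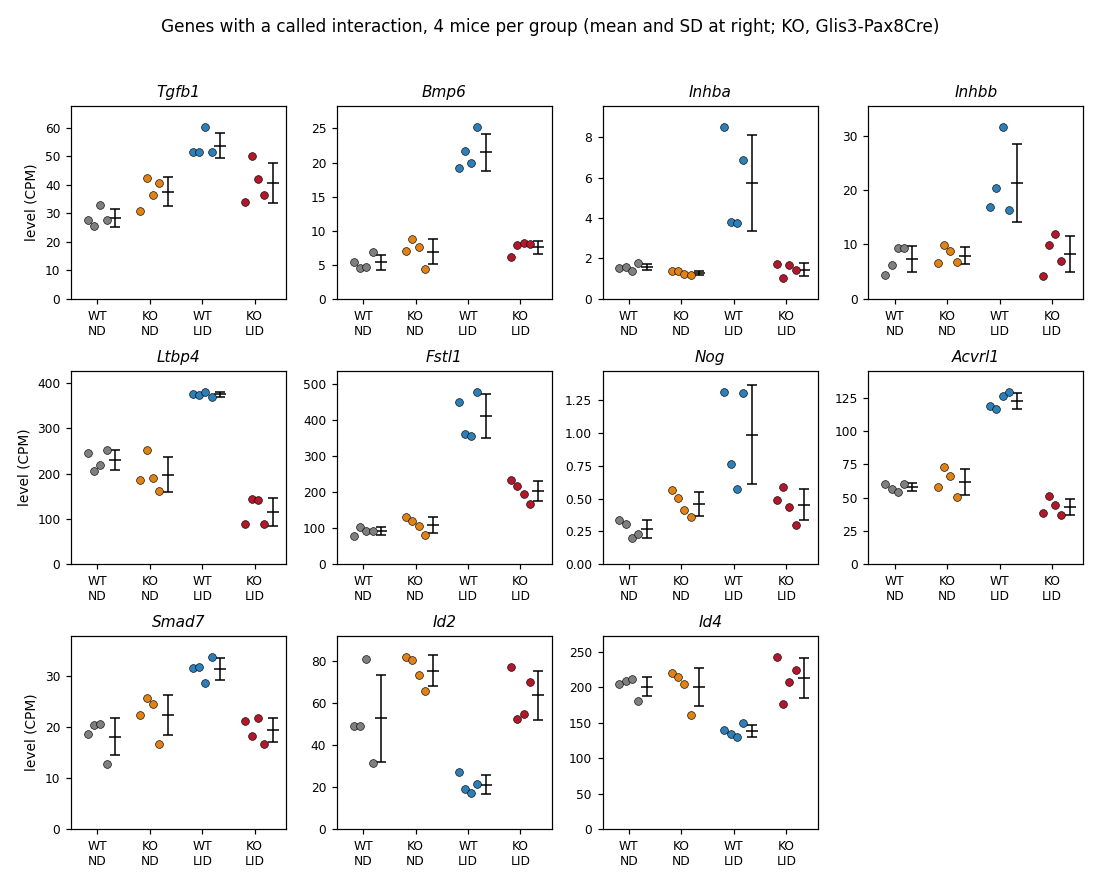
Level in CPM (vertical axis from 0) of the 11 members with a called interaction, with 1 point per mouse, 4 mice per group (KO for *Glis3*-Pax8Cre), and the mean and SD to the right of each group. For 9 of them the 4 WT(LID) mice form the highest group by mean, and for *Id2* and *Id4* they form the lowest.

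Among the antagonists, *Fstl1* changed most with diet in WT mice, and *Chrdl1* in *Glis3*-Pax8Cre mice. *Fstl1* (Entrez 14314, chr16:37777055-37836516 of mm10, plus strand), a secreted follistatin-like glycoprotein of mesenchymal cells that is known to bind BMP4, was at 78.2, 103, 92.7 and 92.6 CPM in the WT(ND) mice and 130.1, 119, 104 and 79.6 CPM in the *Glis3*-Pax8Cre(ND) mice. With LID the levels were 449, 362, 354 and 478 CPM in the WT(LID) mice and 232, 217, 194 and 167 CPM in the *Glis3*-Pax8Cre(LID) mice. The WT(LID) mice were above all others, the *Glis3*-Pax8Cre(LID) mice lay between them and the ND mice, and the ND groups overlapped. It rose 4.48-fold with LID in WT mice (log2 fold change 2.16 ± 0.16 SE, adjusted p = 8.55e-08, quasi-likelihood test of edgeR, Benjamini-Hochberg adjusted) and 1.87-fold in *Glis3*-Pax8Cre mice (log2 fold change 0.91 ± 0.15 SE, adjusted p = 0.000608, same test). The interaction was -1.26 (adjusted p = 0.00130) and the difference between genotypes on LID -1.02 (adjusted p = 0.000124).

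*Nog* (Entrez 18121, chr11:89300638-89302559 of mm10, minus strand), the gene of the BMP trap noggin, was expressed near the lower end of detection, with 9 to 101 counts per mouse. It was at 0.336, 0.308, 0.198 and 0.227 CPM in the WT(ND) mice and 0.565, 0.502, 0.415 and 0.357 CPM in the *Glis3*-Pax8Cre(ND) mice. Levels on LID were 1.32, 0.7605, 0.575 and 1.305 CPM in the WT(LID) mice and 0.492, 0.586, 0.433 and 0.299 CPM in the *Glis3*-Pax8Cre(LID) mice. WT(LID) 1 and 4 were highest, and WT(LID) 3 was below *Glis3*-Pax8Cre(LID) 2. *Nog* rose in WT(LID) (log2 fold change 1.90 ± 0.31 SE, adjusted p = 0.000163, quasi-likelihood test of edgeR, Benjamini-Hochberg adjusted), against 0.00 (adjusted p = 0.998) in *Glis3*-Pax8Cre mice, with an interaction of -1.90 (adjusted p = 0.00989). It was lower in *Glis3*-Pax8Cre(LID) than WT(LID) mice (-1.13, adjusted p = 0.00945, same test).

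*Fstl3* (Entrez 83554, chr10:79777274-79782630 of mm10, plus strand), an inhibitor of activin and myostatin, was also low, with 7 to 365 counts per mouse and 1.15, 0.719, 0.593 and 0.8203 CPM in the WT(ND) mice and 0.439, 0.399, 0.325 and 0.321 CPM in the *Glis3*-Pax8Cre(ND) mice. The LID levels were 1.799, 1.38, 1.73 and 1.78 CPM in the WT(LID) mice and 0.726, 0.456, 0.804 and 0.668 CPM in the *Glis3*-Pax8Cre(LID) mice. Every *Glis3*-Pax8Cre mouse was below every WT mouse on the same diet. It was lower in *Glis3*-Pax8Cre mice on ND (log2 fold change -1.16 ± 0.24 SE, adjusted p = 0.00356) and LID (log2 fold change -1.33 ± 0.23 SE, adjusted p = 0.000393) by the Benjamini-Hochberg adjusted test of edgeR. It rose with LID in WT mice (1.03, adjusted p = 0.00182, same test). Its rise in *Glis3*-Pax8Cre mice (0.86, adjusted p = 0.0166) was lost with the replicate block in those 8 mice (0.80, adjusted p = 0.105), with those 8 mice alone (0.0575) and without *Glis3*-Pax8Cre(LID) 3 (0.0538). *Fstl3* shares 47.3% of its exon bases with *Prss57* on the opposite strand, so reads within the shared bases cannot be assigned to either gene by strand. *Prss57* was at 0.157 CPM in WT(ND) and 0.0654 CPM in WT(LID).

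*Grem1* (Entrez 23892, chr2:113748675-113758648 of mm10, minus strand), which encodes the BMP2 and BMP4 antagonist gremlin 1, had the largest genotype difference on ND among the 47. It was at 5.37, 5.56, 21.5 and 3.43 CPM in the WT(ND) mice and 39.6, 45.4, 59.2 and 36.8 CPM in the *Glis3*-Pax8Cre(ND) mice. Its values on LID were 11.3, 17.2, 13.1 and 15.1 CPM in the WT(LID) mice and 50.9, 26.9, 58.7 and 39.8 CPM in the *Glis3*-Pax8Cre(LID) mice. WT(ND) 3 was far above the other WT(ND) mice and still below every *Glis3*-Pax8Cre(ND) mouse, and the genotypes did not overlap on either diet. It was 5.07-fold higher in *Glis3*-Pax8Cre(ND) (log2 fold change 2.34 ± 0.48 SE, adjusted p = 0.00424) and 3.11-fold higher in *Glis3*-Pax8Cre(LID) (log2 fold change 1.64 ± 0.47 SE, adjusted p = 0.0163) by the Benjamini-Hochberg adjusted test of edgeR. With all mice, the diet effect in WT was not called (0.67, adjusted p = 0.268, same test) and nor was the interaction (-0.71, adjusted p = 0.532). Without WT(ND) 3 the genotype difference on ND was 3.26, *Grem1* rose with LID in WT mice (1.58, adjusted p = 0.000427) and the interaction was -1.63 (0.00821).

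*Chrdl1* (Entrez 83453, chrX:143285674-143394262 of mm10, minus strand), a chordin-like BMP antagonist, was at 13.5, 13.4, 3.81 and 16.01 CPM in the WT(ND) mice and 3.45, 4.44, 3.89 and 2.69 CPM in the *Glis3*-Pax8Cre(ND) mice. With LID the levels were 13.7, 16.8, 14.2 and 19.4 CPM in the WT(LID) mice and 11.9, 8.28, 8.15 and 8.24 CPM in the *Glis3*-Pax8Cre(LID) mice. WT(ND) 3 lay among the *Glis3*-Pax8Cre(ND) mice, far below the other WT(ND) mice. It was 3.22-fold lower in *Glis3*-Pax8Cre(ND) than in WT(ND) (log2 fold change -1.68 ± 0.33 SE, adjusted p = 0.00256, quasi-likelihood test of edgeR, Benjamini-Hochberg adjusted) and rose with LID in *Glis3*-Pax8Cre mice (log2 fold change 1.33 ± 0.32 SE, adjusted p = 0.00798, same test). On LID the lower level in *Glis3*-Pax8Cre mice did not pass the threshold (-0.81, adjusted p = 0.0666) although the groups did not overlap. By DESeq2 (0.0324), in a fit of those 8 mice (0.00281) and without WT(ND) 3 (-0.81, adjusted p = 0.00205) it did. Without WT(ND) 3 the interaction was 1.15 (0.00766) against 0.88 (adjusted p = 0.228) with it.

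*Bambi*, which encodes a receptor-like protein without a kinase that blocks TGF-beta family receptors, was at 9.68 ± 2.66 CPM (SD, n = 4) on ND and 10.9 ± 0.568 on LID in WT mice, and at 18.2 ± 3.402 on ND and 16.7 ± 2.2 on LID in *Glis3*-Pax8Cre mice. It was higher in *Glis3*-Pax8Cre mice on ND (0.92, adjusted p = 0.00178) and LID (0.62, adjusted p = 0.0108) by the Benjamini-Hochberg adjusted test of edgeR, and without WT(ND) 3 it also rose in WT(LID) (0.38, adjusted p = 0.0446). *Fst*, the follistatin gene, varied from 4.08 to 14.6 CPM within WT(ND) and did not pass the test with all 16 mice (adjusted p 0.0599 to 0.893 in the 4 comparisons). It was called lower in WT(LID) by DESeq2 (adjusted p = 0.0262), under library size alone (0.0325) and without WT(ND) 1 (0.0452), WT(ND) 4 (0.0253) or *Glis3*-Pax8Cre(ND) 4 (0.0376), and higher in *Glis3*-Pax8Cre(LID) than WT(LID) mice in a fit of those 8 mice (0.81, adjusted p = 0.0319). *Chrd*, the chordin gene, stayed between group means of 2.69 and 3.29 CPM and was not called either (0.305 to 0.861).

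**Figure D4:**
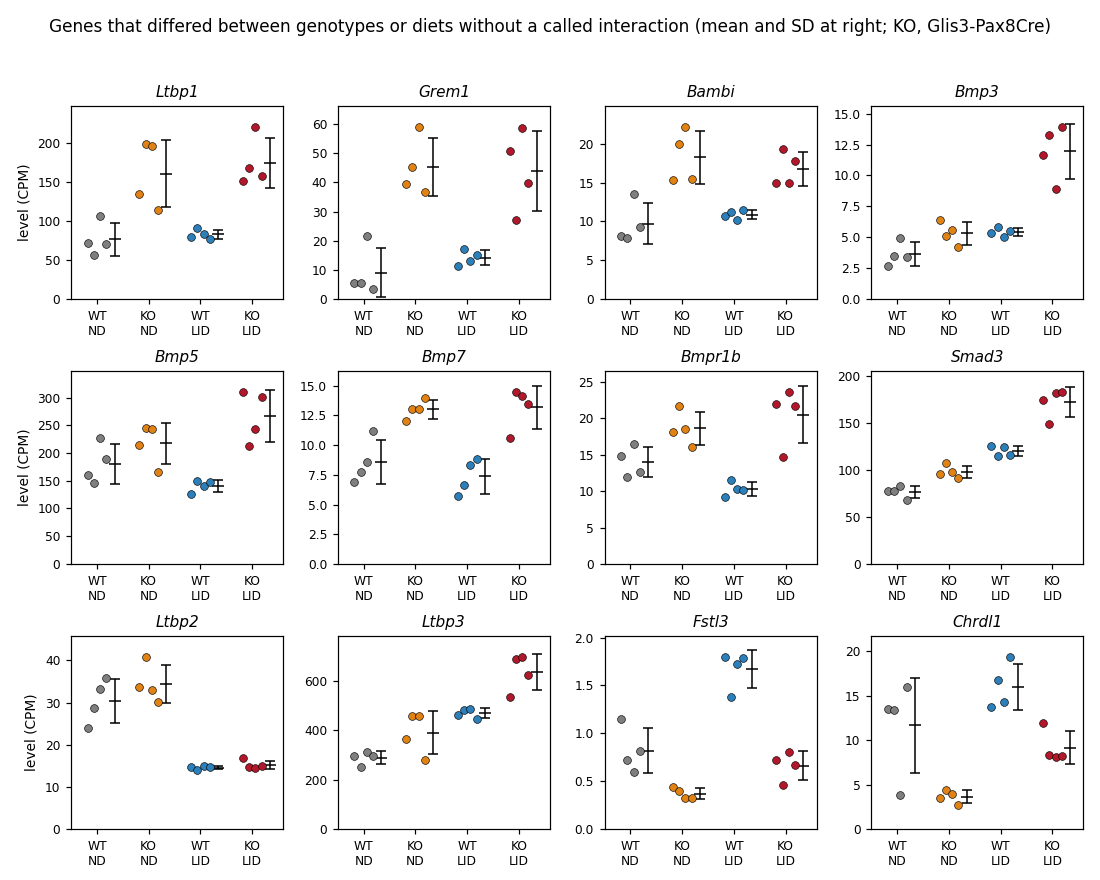
Level in CPM (vertical axis from 0) of 12 members that were called in at least 1 comparison and had no called interaction, with 1 point per mouse, 4 mice per group (KO for *Glis3*-Pax8Cre), and the mean and SD to the right of each group. *Ltbp1*, *Grem1* and *Bambi* are higher in the *Glis3*-Pax8Cre groups on both diets, *Ltbp2* is lower in both LID groups, and WT(ND) 3 is high for *Grem1* and low for *Chrdl1*.

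Among the receptor genes, *Acvrl1* had the largest difference in WT mice with diet and between genotypes on LID. *Acvrl1* (Entrez 11482, chr15:101128522-101145336 of mm10, plus strand), which encodes the endothelial type I receptor ALK1 for BMP9 and BMP10, was at 60.2, 56.5, 54.2 and 60.4 CPM in the WT(ND) mice and 57.8, 72.99, 66.2 and 50.3 CPM in the *Glis3*-Pax8Cre(ND) mice. Levels on LID were 119, 117, 126 and 129.8 CPM in the WT(LID) mice and 38.7, 51.04, 44.7 and 37.2 CPM in the *Glis3*-Pax8Cre(LID) mice. The WT(LID) mice were far above all 12 others and the *Glis3*-Pax8Cre(LID) mice had the lowest mean. It rose with LID in WT mice (log2 fold change 1.09 ± 0.11 SE, adjusted p = 3.09e-06, quasi-likelihood test of edgeR, Benjamini-Hochberg adjusted) and fell in *Glis3*-Pax8Cre mice (log2 fold change -0.53 ± 0.11 SE, adjusted p = 0.00362, same test). In these mice *Glis3*-Pax8Cre(ND) 4 and *Glis3*-Pax8Cre(LID) 2 overlapped. The interaction was -1.62 (adjusted p = 1.38e-05), and on LID the level was 2.87-fold lower in *Glis3*-Pax8Cre mice (-1.52, adjusted p = 2.17e-07).

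The type I receptor genes *Bmpr1a* and *Bmpr1b* fell in WT(LID) and were higher in *Glis3*-Pax8Cre(LID). *Bmpr1a* was at 163 ± 11.7 CPM (SD, n = 4) on ND and 113 ± 2.12 on LID in WT mice, and at 155 ± 23.8 on ND and 147 ± 17.6 on LID in *Glis3*-Pax8Cre mice. It fell in WT(LID) (-0.53, adjusted p = 0.00122, quasi-likelihood test of edgeR, Benjamini-Hochberg adjusted) and was higher in *Glis3*-Pax8Cre(LID) than WT(LID) mice (0.37, adjusted p = 0.0166, same test). The latter call was lost without *Glis3*-Pax8Cre(LID) 3 (adjusted p 0.0504). The interaction of *Bmpr1a* was called without *Glis3*-Pax8Cre(LID) 2 (0.53, adjusted p = 0.0247) and not with all 16 mice. *Bmpr1b* was at 13.98 ± 2.07 CPM (SD, n = 4) on ND and 10.3 ± 0.996 on LID in WT mice, and at 18.6 ± 2.29 on ND and 20.5 ± 3.98 on LID in *Glis3*-Pax8Cre mice. On ND its higher level in *Glis3*-Pax8Cre mice was not called with all 16 mice (0.41, adjusted p = 0.0581, same test). It was called there without WT(ND) 3 (0.52, adjusted p = 0.0259), by DESeq2 (0.0288) and under library size alone (0.0127). Leaving out *Glis3*-Pax8Cre(ND) 4 (0.0339) or *Glis3*-Pax8Cre(LID) 2 (0.0226) gave the call too. Its level was 1.99-fold higher in *Glis3*-Pax8Cre(LID) (0.99, adjusted p = 0.000117), and its fall in WT(LID) (-0.44, adjusted p = 0.0250) was lost without WT(ND) 1 or 3 or WT(LID) 1, 3 or 4 (adjusted p 0.0547 to 0.0901). The interaction of *Bmpr1b* was likewise called only without *Glis3*-Pax8Cre(LID) 2 (0.71, adjusted p = 0.0151). *Bmpr2*, the type II partner, moved the other way, at 159 ± 16.5 CPM (SD, n = 4) on ND and 231 ± 16.8 on LID in WT mice, and at 165 ± 5.96 on ND and 169 ± 33.96 on LID in *Glis3*-Pax8Cre mice. It rose in WT(LID) (0.54, adjusted p = 0.00244, same test) and was lower in *Glis3*-Pax8Cre(LID) (-0.45, adjusted p = 0.0108). The interaction of *Bmpr2* was not called with all 16 mice. It was called by DESeq2 (-0.52, adjusted p = 0.0301) and without WT(ND) 4 (-0.59, adjusted p = 0.0499) or *Glis3*-Pax8Cre(LID) 3 (-0.61, adjusted p = 0.035).

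Of the TGF-beta receptors, *Tgfbr3*, which encodes the co-receptor betaglycan, fell with LID in WT (-0.38, adjusted p = 0.0151) and *Glis3*-Pax8Cre mice (-0.48, adjusted p = 0.00693) by the Benjamini-Hochberg adjusted test of edgeR. The first was lost without WT(ND) 4 (0.0524) or WT(LID) 1 (0.0520) and the second with the replicate block in the 8 mice (0.0542). *Tgfbr1* was slightly higher in *Glis3*-Pax8Cre(ND) (0.30, adjusted p = 0.0465, same test), a call lost without WT(ND) 1, 2 or 4, *Glis3*-Pax8Cre(ND) 2, 3 or 4, WT(LID) 3 or 4, or *Glis3*-Pax8Cre(LID) 1 or 4 (adjusted p 0.0541 to 0.140). That call was also lost without a filter on low counts (0.0601), with the replicate block in all 16 mice (0.0564) and with the ND mice alone (0.057). *Tgfbr2* did not pass edgeR's test with all 16 mice (adjusted p 0.0706 to 0.395). It was called lower in *Glis3*-Pax8Cre(LID) than WT(LID) mice in a fit of those 8 mice (-0.21, adjusted p = 0.0397), with a minimum of 10 counts in every mouse (0.0467) and without WT(ND) 1 (0.0408), in *Glis3*-Pax8Cre(LID) against *Glis3*-Pax8Cre(ND) under library size alone (0.0314), and in the interaction by DESeq2 (-0.32, adjusted p = 0.0483). Among the activin receptors, *Acvr2b* fell in WT(LID) (-0.67, adjusted p = 0.00151, same test), and *Acvr1b* and *Acvr2a* were not called. The interaction of *Acvr2b* was called without WT(ND) 3 (0.58, adjusted p = 0.0499) and not with all 16 mice. *Acvr1* rose with LID in WT (0.29, adjusted p = 0.0384, same test) and in *Glis3*-Pax8Cre mice (0.33, adjusted p = 0.0363). The first was lost under library size alone (0.13, adjusted p = 0.33) and without a filter on low counts (0.0551). It was also lost without WT(ND) 1 or 2 or WT(LID) 1, 2 or 4 (0.0651 to 0.116). The second was lost under library size alone (0.20, adjusted p = 0.184), without a filter on low counts (0.0584) and in a fit of those 8 mice (0.109). It was also lost with the replicate block in the 8 mice (0.110) and without WT(ND) 4, *Glis3*-Pax8Cre(ND) 1 or 4, WT(LID) 1, 2 or 3, or *Glis3*-Pax8Cre(LID) 3 or 4 (0.0515 to 0.124).

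Of the 6 receptor SMAD and SMAD4 genes, *Smad3* and *Smad9* changed. *Smad3*, the transcriptional effector of TGF-beta and activin, was at 77.4, 77.7, 82.7 and 68.2 CPM in the WT(ND) mice and 95.4, 107, 97.2 and 90.7 CPM in the *Glis3*-Pax8Cre(ND) mice. The LID levels were 125, 115, 124 and 116 CPM in the WT(LID) mice and 174, 149, 181 and 183 CPM in the *Glis3*-Pax8Cre(LID) mice. The 4 groups did not overlap and were lowest in WT mice on ND, then higher in *Glis3*-Pax8Cre mice on ND, WT mice on LID and *Glis3*-Pax8Cre mice on LID. *Smad3* was higher with LID in WT (log2 fold change 0.65 ± 0.08 SE, adjusted p = 1.89e-05) and *Glis3*-Pax8Cre mice (log2 fold change 0.82 ± 0.08 SE, adjusted p = 9.88e-06) by the Benjamini-Hochberg adjusted test of edgeR. It was also higher in *Glis3*-Pax8Cre mice on ND (0.35, adjusted p = 0.00806, same test) and LID (0.52, adjusted p = 0.000211). Its interaction was 0.17 (adjusted p = 0.395). *Smad9*, a BMP effector also called SMAD8, was at 92.6 ± 11.7 CPM (SD, n = 4) on ND and 48.8 ± 4.51 on LID in WT mice, and at 93.8 ± 17.2 on ND and 81.3 ± 20.5 on LID in *Glis3*-Pax8Cre mice. It fell in WT(LID) (-0.92, adjusted p = 0.000540, same test) and was higher in *Glis3*-Pax8Cre(LID) than WT(LID) mice (0.74, adjusted p = 0.00418).

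*Smad1*, *Smad2*, *Smad4* and *Smad5* were not called by edgeR with all 16 mice, with log2 fold changes from -0.18 to 0.18 and adjusted p from 0.0907 to 0.946 in the 4 comparisons. Under library size alone *Smad1* (-0.28, adjusted p = 0.0193), *Smad4* (-0.24, adjusted p = 0.0122) and *Smad5* (-0.23, adjusted p = 0.0375) were lower in WT(LID), and *Smad2* was higher there in a fit of the WT mice alone (0.19, adjusted p = 0.0199, quasi-likelihood test of edgeR, Benjamini-Hochberg adjusted). *Smad1* was called higher in *Glis3*-Pax8Cre(ND) without WT(ND) 3 (0.25, adjusted p = 0.0455, same test). Of the inhibitory SMADs, *Smad7*, a feedback target and inhibitor of TGF-beta signalling, was at 18.6, 20.4, 20.6 and 12.8 CPM in the WT(ND) mice and 22.3, 25.7, 24.4 and 16.8 CPM in the *Glis3*-Pax8Cre(ND) mice. Its values on LID were 31.5, 31.8, 28.6 and 33.8 CPM in the WT(LID) mice and 21.1, 18.3, 21.8 and 16.8 CPM in the *Glis3*-Pax8Cre(LID) mice. Every WT(LID) mouse was above all 12 others, whose groups overlapped. It rose in WT(LID) (log2 fold change 0.80 ± 0.15 SE, adjusted p = 0.000688, same test) against -0.20 (adjusted p = 0.368) in *Glis3*-Pax8Cre mice. The interaction was -0.99 (adjusted p = 0.00747), and on LID it was lower in *Glis3*-Pax8Cre mice (-0.69, adjusted p = 0.00293). *Smad6*, which acts mainly on BMP signalling, was at 41.4 ± 10.3 CPM (SD, n = 4) on ND and 60.04 ± 15.2 on LID in WT mice, and at 41.1 ± 9.14 on ND and 37.8 ± 6.76 on LID in *Glis3*-Pax8Cre mice. Its lower level in *Glis3*-Pax8Cre(LID) (-0.67, adjusted p = 0.0330, same test) was not called under library size scaling alone (-0.53, adjusted p = 0.101) or without WT(LID) 1 or 4 or *Glis3*-Pax8Cre(LID) 2, 3 or 4 (0.0663 to 0.117).

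The ID genes encode dimerisation inhibitors of basic helix-loop-helix factors, and *Id2* and *Id4* fell in WT(LID), where *Smad7* rose. *Id2* (Entrez 15902, chr12:25093799-25096092 of mm10, minus strand), one of 2 ID genes with GGCGCC in the promoters printed above, was at 49.2, 49.2, 81.2 and 31.7 CPM in the WT(ND) mice and 82.1, 80.4, 73.5 and 65.7 CPM in the *Glis3*-Pax8Cre(ND) mice. With LID the levels were 27.2, 19.2, 17.2 and 21.2 CPM in the WT(LID) mice and 77.1, 52.6, 54.9 and 70.04 CPM in the *Glis3*-Pax8Cre(LID) mice. The WT(LID) mice were below all 12 others, and WT(ND) 3 was within the range of *Glis3*-Pax8Cre(ND). *Id2* fell in WT(LID) (log2 fold change -1.31 ± 0.23 SE, adjusted p = 0.000374, quasi-likelihood test of edgeR, Benjamini-Hochberg adjusted) and was 3.00-fold higher in *Glis3*-Pax8Cre(LID) than WT(LID) mice (log2 fold change 1.58 ± 0.23 SE, adjusted p = 0.000125, same test). With diet in *Glis3*-Pax8Cre mice its log2 fold change was -0.24 (adjusted p = 0.452). The interaction of 1.07 (adjusted p = 0.0425) was kept without WT(ND) 4, WT(LID) 1 or *Glis3*-Pax8Cre(LID) 2 and lost without each of the other 13 mice (adjusted p 0.0521 to 0.0973), and it was 0.77 without WT(ND) 3. On ND, *Id2* was called higher in *Glis3*-Pax8Cre mice without WT(ND) 3 (0.81, adjusted p = 0.00696) and not with it (0.51, adjusted p = 0.125).

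*Id4* (Entrez 15904, chr13:48261427-48264036 of mm10, plus strand) was at 204, 208, 211 and 181 CPM in the WT(ND) mice and 220.3, 215, 205 and 160.3 CPM in the *Glis3*-Pax8Cre(ND) mice. Levels on LID were 139.9, 134, 129 and 149 CPM in the WT(LID) mice and 243, 176, 208 and 224 CPM in the *Glis3*-Pax8Cre(LID) mice. The WT(LID) mice were again below all others. It fell in WT(LID) (log2 fold change -0.54 ± 0.11 SE, adjusted p = 0.00107, quasi-likelihood test of edgeR, Benjamini-Hochberg adjusted), against 0.09 (adjusted p = 0.578) in *Glis3*-Pax8Cre mice, with an interaction of 0.63 (adjusted p = 0.0152). On LID it was higher in *Glis3*-Pax8Cre(LID) than WT(LID) mice (0.62, adjusted p = 0.000507, same test). *Id4* shares 2.13% of its exon bases with *A330033J07Rik* on the other strand, which was at 16 CPM in WT(ND) and 7.51 CPM in WT(LID). *Id3* was at 184 ± 65.5 CPM (SD, n = 4) on ND and 164 ± 13.7 on LID in WT mice, and at 278 ± 50.7 on ND and 264 ± 27.98 on LID in *Glis3*-Pax8Cre mice. It was higher in *Glis3*-Pax8Cre(LID) than WT(LID) mice (0.68, adjusted p = 0.0245, same test). That call was lost without WT(LID) 1, 2 or 3 or *Glis3*-Pax8Cre(LID) 1 or 2 (adjusted p 0.0551 to 0.0725). On ND it was called higher in *Glis3*-Pax8Cre mice by DESeq2 (0.60, adjusted p = 0.0289), under library size alone (0.0404), and without WT(ND) 3 (0.81, adjusted p = 0.0122) or *Glis3*-Pax8Cre(ND) 4 (0.0324). *Id1* was at 70.6 ± 22.99 CPM (SD, n = 4) on ND and 111 ± 15.3 on LID in WT mice, and at 122 ± 30.8 on ND and 143 ± 22.1 on LID in *Glis3*-Pax8Cre mice, and was higher in WT(LID) (0.65, adjusted p = 0.0343) and in *Glis3*-Pax8Cre(ND) (0.79, adjusted p = 0.0265) than in WT(ND). The first call was lost without WT(ND) 1, 2 or 4 or WT(LID) 1, 2 or 4 (adjusted p 0.0508 to 0.0866) and the second without WT(ND) 1, 2 or 4 or *Glis3*-Pax8Cre(ND) 1 or 3 (0.0531 to 0.0706). Library size alone (0.49, adjusted p = 0.126) and a fit of the WT mice alone (0.0506) also ended the first. A fit of the ND mice alone (0.0981) also ended the second.

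Around the 47 members, 93 other genes of the pathway were listed in 6 groups, of which 80 were tested. In WT(LID) against WT(ND), 40 were higher and 16 lower with a median log2 fold change of 0.45, and in *Glis3*-Pax8Cre(LID) against *Glis3*-Pax8Cre(ND), 24 were higher and 2 lower with a median of 0.15. In *Glis3*-Pax8Cre(LID) against WT(LID), 8 were higher and 30 lower. Over all genes tested, 20.9% were higher and 20.8% lower in the first of these comparisons, 13.1% and 12.3% in the second and 14.9% and 15.4% in the last, the background for the counts of the lists that follow. The lower count of the 80 in the first comparison (16) was near its background, and the higher count in the last (8) was below it. Of 16 known TGF-beta target genes tested, 15 were higher in WT(LID) than in WT(ND) and 8 in *Glis3*-Pax8Cre(LID) than in *Glis3*-Pax8Cre(ND), and 11 were lower and 1 higher in *Glis3*-Pax8Cre(LID) than WT(LID) mice, with medians of 1.81, 0.76 and -0.94. The interaction was negative and called for 8 of them, against 7.41% of all genes tested.

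*Tagln*, an actin-binding protein gene of smooth muscle, was at 25.9 ± 3.96 CPM (SD, n = 4) on ND and 128 ± 13.97 on LID in WT mice, and at 22.4 ± 2.08 on ND and 36.6 ± 7.76 on LID in *Glis3*-Pax8Cre mice. *Acta2*, the smooth muscle actin gene, was at 30.2 ± 6.15 CPM (SD, n = 4) on ND and 172 ± 25.6 on LID in WT mice, and at 27.6 ± 8.82 on ND and 33.2 ± 9.19 on LID in *Glis3*-Pax8Cre mice. Their differences between genotypes on LID were -1.81 (adjusted p = 3.73e-07) and -2.37 (adjusted p = 5.19e-06) (quasi-likelihood test of edgeR, Benjamini-Hochberg adjusted). Those of *Snai1*, a repressor of epithelial genes, and the collagen gene *Col1a1* were -1.50 (adjusted p = 3.26e-05) and -1.48 (adjusted p = 0.000149) (same test). *Col1a1* was also lower in *Glis3*-Pax8Cre mice on ND (-0.67, adjusted p = 0.0455). *Tagln* and *Acta2* are also expressed by the pericytes and smooth muscle cells whose markers were higher in WT(LID).

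Of 7 other receptors and co-receptors tested, *Eng*, the gene of the endothelial co-receptor endoglin that works with ALK1, followed *Acvrl1*. It was at 109 ± 11.6 CPM (SD, n = 4) on ND and 572 ± 19.1 on LID in WT mice, and at 141 ± 24.2 on ND and 138 ± 23.6 on LID in *Glis3*-Pax8Cre mice. It rose in WT(LID) by 2.39 (adjusted p = 9.41e-09), with an interaction of -2.42 (adjusted p = 1.71e-06) (quasi-likelihood test of edgeR, Benjamini-Hochberg adjusted). *Acvr1c*, *Rgmb* and *Amhr2*, the next by p-value, were not called between genotypes on LID (adjusted p 0.148 to 0.378). Of 17 other extracellular regulators tested, 9 were higher and 5 lower in WT(LID), and 7 were lower and 4 higher in *Glis3*-Pax8Cre(LID) than WT(LID) mice. *Lrrc32*, which displays latent TGF-beta on the cell surface, was at 16.4 ± 2.35 CPM (SD, n = 4) on ND and 76.5 ± 13.6 on LID in WT mice, and at 11.1 ± 1.84 on ND and 11.8 ± 0.659 on LID in *Glis3*-Pax8Cre mice, with a difference on LID of -2.70 (adjusted p = 1e-08) (same test). *Fbn1*, the fibrillin gene, was also lower (-1.55, adjusted p = 0.000111), as was *Nbl1*, the BMP antagonist DAN (-1.07, adjusted p = 0.000161), while *Sostdc1*, a BMP and Wnt antagonist, was higher (1.53, adjusted p = 0.000134). *Nbl1* was lower on ND too (-1.14, adjusted p = 0.000334), with an interaction of 0.07 (adjusted p = 0.881).

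Other ligands of the family were mostly rare. Of the 14 tested of 21, 5 were lower and 1 higher in *Glis3*-Pax8Cre(LID) than WT(LID) mice. *Gdf15*, a stress-induced ligand of the receptor GFRAL, was at 8.52 ± 1.35 CPM (SD, n = 4) on ND and 109 ± 42.3 on LID in WT mice, and at 9.32 ± 2.63 on ND and 60.7 ± 18.6 on LID in *Glis3*-Pax8Cre mice. It rose with LID in both genotypes (log2 fold changes 3.68 in WT and 2.73 in *Glis3*-Pax8Cre mice, adjusted p = 4.55e-07 and 2.05e-05, quasi-likelihood test of edgeR, Benjamini-Hochberg adjusted) and was lower in *Glis3*-Pax8Cre(LID) (-0.85, adjusted p = 0.0278, same test). *Gdf11* (-0.66, adjusted p = 0.0419) was lower too, and *Gdf6* (-1.72, adjusted p = 0.00135) and *Bmp15* (-2.56, adjusted p = 4.57e-05) were lower at means of at most 1.33 CPM in any group.

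Of 15 intracellular modifiers, 4 were lower and 2 higher in *Glis3*-Pax8Cre(LID) than WT(LID) mice. *Pmepa1*, a TGF-beta-induced gene whose product restrains SMAD2 and SMAD3, was at 116 ± 8.62 CPM (SD, n = 4) on ND and 376 ± 17.7 on LID in WT mice, and at 166 ± 16.3 on ND and 206 ± 18.1 on LID in *Glis3*-Pax8Cre mice. Its interaction was -1.39 (adjusted p = 5.87e-06) (quasi-likelihood test of edgeR, Benjamini-Hochberg adjusted). *Smurf2*, a ubiquitin ligase of the pathway, was lower on LID in *Glis3*-Pax8Cre mice (-0.46, adjusted p = 0.000399, same test), and the SMAD corepressor *Tgif2* (1.46, adjusted p = 1.51e-07) and the phosphatase *Ppm1a* (0.31, adjusted p = 0.00438) were higher. *Tgif2* was also higher on ND (0.9, adjusted p = 6.46e-05), with an interaction of 0.56 (adjusted p = 0.0228). Of 11 proteases and integrins that release ligands, 2 were lower on LID in *Glis3*-Pax8Cre mice, *Thbs1* (-0.96, adjusted p = 0.00251), the activator of latent TGF-beta thrombospondin 1, and *Htra3* (-0.75, adjusted p = 0.0226), a secreted protease. Both were also lower on ND (*Thbs1* -1.04, adjusted p = 0.00317, and *Htra3* -0.8, adjusted p = 0.027). Their interactions were 0.08 and 0.04 and were not called. *Bmp1* and *Htra1* were not called between genotypes on LID (0.104 and 0.150).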

How the data were processed

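Thyroid RNA of 16 mice, 4 per group, was sequenced, and the authors deposited 1 table of raw read-pair counts per RefSeq gene on mm10, made per the submitters' notes with STAR 2.5 and featureCounts 1.5.0-p1 without regard to strand. No other per-sample columns were used (0 were unmapped). Counts were tested in R 4.3.3 with edgeR 4.0.16 (TMM, filterByExpr over the 4 groups, robust quasi-likelihood fit of all 16 mice, 1 mean per group, Benjamini-Hochberg adjustment over 16630 genes), after a check on simulated data. Limma 3.58.1 was loaded with it, and DESeq2 1.42.0 was an alternative. The depth of 13892352 to 461077969 counted pairs puts 3 counts, the limit that a count of 0 allows, at 0.00651 to 0.216 CPM. Such limits cover counting error only, and p-values measure the spread between these mice.

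The 47 members and the other lists were chosen with earlier results of these data known. A member was given in all mice when its adjusted p was under 0.01 with a fold change over 2 in a comparison, or under 0.05 in the interaction, and its mean was at least 0.5 CPM. Of each other list, up to 4 genes with the smallest adjusted p between genotypes on LID were named. *Smad3* was added after its values were seen. Replicate numbers are given in the labels, and mice with the same number are not stated to be paired. Deviations of same-numbered *Glis3*-Pax8Cre mice correlated at 0.21 to 0.65 across diets, so a fit with that block is given there. Mice of different numbers were not correlated for comparison. In the other comparisons at least 1 pair had a correlation of 0.10 or lower. The alternatives were other scalings and filters, no *Tg*, the replicate block, only the mice compared, DESeq2, a stricter call and each mouse left out. Exon lengths came from GENCODE vM21 and promoters from RefSeq (GRCm38.p6), with an entry used for 33 of the 47 members and none from chromosome 18.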

Additional observations from a re-analysis of the deposited data

Results flagged for a closer look

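Single mice stood apart from the other 3 of their group for 5 of 72 groups of 4 values, by the gap to the nearest mouse against the range of the group, and chance alone marks about 1 in 20 groups. *Tgfb1* was at 60.43 CPM in WT(LID) 3, *Tgfb3* at 25.81 CPM in WT(ND) 3, *Bmp6* at 6.207 CPM in *Glis3*-Pax8Cre(LID) 1, *Grem1* at 21.52 CPM in WT(ND) 3 and *Chrdl1* at 11.95 CPM in *Glis3*-Pax8Cre(LID) 1. *Grem1* in WT(ND) 3 lay towards the *Glis3*-Pax8Cre(ND) mice but below all of them. On 419 genes the other 3 WT(ND) mice and the *Glis3*-Pax8Cre(ND) mice were apart by over 2-fold. WT(ND) 3 reached the *Glis3*-Pax8Cre(ND) range for 93 of these. The same count was 0 of 140 genes for WT(ND) 1, 0 of 132 for WT(ND) 2 and 1 of 149 for WT(ND) 4. Each set was chosen from the other 3 WT(ND) mice. The sets for WT(ND) 1, 2 and 4 thus hold only genes on which WT(ND) 3 was itself apart from *Glis3*-Pax8Cre(ND). The 4 counts are therefore on unlike genes and are not a like comparison of the mice.

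The response to LID differed between genotypes for 11 members by the interaction (edgeR's adjusted p under 0.05). Over all genes tested, 7.41% had a negative interaction and 4.43% a positive one at that threshold. The log2 difference, *Glis3*-Pax8Cre minus WT, was -0.81 for *Tgfb1*, -1.88 for *Bmp6*, -1.71 for *Inhba*, -1.49 for *Inhbb*, -1.48 for *Ltbp4*, -1.26 for *Fstl1*, -1.90 for *Nog*, -1.62 for *Acvrl1* and -0.99 for *Smad7*. It was positive for *Id2* (1.07) and *Id4* (0.63). All 8 endothelial markers had a negative interaction too, and their part in these values was not tested.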

How the results depend on the processing

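Across 27 settings no called member result changed its direction. Of 2219 alternatives to the 89 called results, 2090 kept the call and 129 lost it, and 68 results kept it throughout. The stricter call (adjusted p under 0.01, over 2-fold) gave 7 higher and 2 lower members for diet in WT, 2 and 1 for diet in *Glis3*-Pax8Cre, 2 higher between genotypes on ND, 3 and 9 on LID, and 0 positive interactions, where edgeR had 8 at an unadjusted p under 0.05 and DESeq2 called 4. Library size alone, which shifted the median of all genes by -0.16, -0.13, 0.12 and 0.15 in those comparisons, gave 14 lower for diet in WT, 9 lower for diet in *Glis3*-Pax8Cre, 14 higher on ND and 1 positive interaction. Positive interactions also numbered 1 without a filter and 1 with the replicate block in all 16 mice, where *Id2* was lost (adjusted p = 0.0578). That block gave 19 and 9, 7 and 5, 9 and 3, and 14 and 14 members higher and lower in the 4 comparisons and 9 negative interactions. With the 8 *Glis3*-Pax8Cre mice alone, the replicate block gave 5 higher and 3 lower. Between genotypes on ND, only the mice compared gave 5 higher, a minimum of 10 counts in every mouse gave 1 lower, and leaving out both WT(ND) 3 and *Glis3*-Pax8Cre(ND) 4, an alternative chosen after seeing the data like the block in 8 mice, gave 16 higher. The minimum of 10 counts removed *Fstl3* (lowest count 7) and *Nog* (lowest count 9), so *Fstl3*, lower on ND in the main fit, was not tested there. Leaving out 1 mouse gave 15 to 20 higher and 7 to 11 lower for diet in WT, 5 to 7 and 4 to 7 for diet in *Glis3*-Pax8Cre, 4 to 14 and 2 to 2 on ND, 12 to 14 and 12 to 15 on LID, and 1 to 6 positive and 8 to 11 negative interactions. Shares of all genes called in these fits are not given beside the counts, and the cause of the other shifts was not tested. *Nog* and *Fstl3* are limited by depth, with at least 1 mouse under 10 counts.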
